A study of Drosophila melanogaster with 9 samples.

Results

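The Iroquois complex (Iro-C) of Drosophila melanogaster is a run of 3 neighbouring genes on chromosome arm 3L, ara (araucan, FBgn0015904), caup (caupolican, FBgn0015919) and mirr (mirror, FBgn0014343). Contacts of the complex were read from 2 deposited lists of paired 10 kb bins made by Hi-C, a method that joins and sequences DNA ends lying close together in fixed nuclei. A pair was taken as a contact of the complex when at least 1 of its bins lay in 3L 12580001-12740000, a window of 16 bins. This rule uses position and no measured value, though the window was chosen with earlier results of these data known. The list of heat-shocked cells (HS list) had 80 such pairs of 59303 in all and a companion list 48 of 33978. Arm 3L held 12354 and 7608 pairs of these lists.

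The genes of the complex encode homeodomain transcription factors of the TALE class. In the fly they pattern the notum, the dorsal eye and head, and the wing veins and sensory bristles. ara and caup share most of their expression and many regulatory elements, while mirr is used partly on its own. The complex is a classical target of Polycomb group proteins, which keep developmental genes silent and can bring distant silent genes together in the nucleus.

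The HS list covers 2 Hi-C libraries together, HS1 and HS2, of Kc167, a female line set up from embryos. These cells were grown at 25 °C and held at 37 °C for 20 min before formaldehyde fixation, and their chromatin was cut with HindIII. Cells and treatment behind the companion list are named in none of the labels used, and it is compared here as a list of unknown condition. The other 7 libraries of the series, of ChIP-seq and its input, were not analysed here. Both lists give a score by the authors for each pair. A more negative score is called stronger here, though what the score measures is not stated. No score is above -2, and no read counts are given. Depth is therefore unknown, and of an unlisted pair it can only be said that it missed that limit.

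No replicate spread exists, since each list is a single table, so no test between the lists was possible. Intervals are exact 95% intervals, Clopper-Pearson for shares, conditional binomial for ratios of counts and order statistics for medians. They take in counting error alone and count each pair as independent. The ends of the arms in the lists match genome Release 5, while the only gene table used is from Release 6. The 3 genes fall within the limits of the window by their Release 6 positions. Positions were not converted between builds, so no gene was assigned to a single bin and no sequence is shown. In that table ara comes first from the low end of the window, then caup, then mirr. The nearest coding genes outside are sowah beyond ara and SmD1 (a spliceosome protein) and then Ptp69D (a receptor tyrosine phosphatase of axons) beyond mirr. Between ara and mirr the table places caup as the only coding gene, along with 4 long noncoding RNA genes.

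The Iroquois window was poor in pairs in both lists. Its 80 HS pairs compare with a median of 135 (range 44 to 664) over the 151 other windows of equal width that tile 3L, of which 21 had fewer. Its 48 companion pairs compare with a median of 77 (range 21 to 648), and 25 of the 151 had fewer. Both flanks of equal width were richer. The upstream flank, 3L 12420001-12580000, had 135 pairs in the HS list and 66 in the companion list, while the downstream flank, 3L 12740001-12900000, had 116 and 96.

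The HS list held more pairs of the window than the companion list, in about the proportion of the whole arm. The window's HS pairs over its companion pairs came to a ratio of 1.67 (1.15 to 2.44), and those of the rest of 3L to 1.62 (1.58 to 1.67). Among the 151 other windows 77 had a higher ratio and 74 a lower one. The ratio was 2.045 (1.51 to 2.79) in the upstream flank and 1.21 (0.914 to 1.60) in the downstream flank, with intervals that overlap each other and that of the window. Without the seventh bin of the window the ratio was 1.25 (0.826 to 1.90), an interval that holds the 1.67 of the whole window. That bin had the largest gain and was picked after seeing the data, so leaving it out had to lower the ratio. Without the last bin the ratio was 2.0 (1.30 to 3.14).

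The median score of the window's pairs was weaker than that of the rest of the arm. The median score of HS pairs was -2.24 (-2.35 to -2.17) in the window and -2.57 (-2.58 to -2.55) in the rest of 3L. Companion pairs had medians of -2.29 (-2.54 to -2.12) and -2.60 (-2.62 to -2.58). Scores reached -3 or lower for 13 of 80 HS pairs of the window, 16.3% (8.95 to 26.2%), against 32.3% in the rest of the arm. In the companion list they did so for 6 of 48, 12.5% (4.73 to 25.3%), against 34.8%. In the HS list the flanks were also below the arm, with 20% (13.6 to 27.8%) upstream and 21.6% (14.5 to 30.1%) downstream. In the companion list they were at 33.3% (22.2 to 46.0%) and 32.3% (23.1 to 42.6%), close to the arm. Scores were not compared among pairs of like distance.

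The direction of the comparison depended on how the lists were cut. With the HS list shortened to the companion list's length of 33978 by keeping the strongest pairs, 26 of the 80 window pairs were left, which is 32.5% (22.4 to 43.9%). In the rest of 3L 55.6% (54.7 to 56.5%) were left. The ratio to the companion list was then 0.542 (0.323 to 0.891) for the window and 0.902 (0.873 to 0.933) for the rest of 3L. It was 0.849 (0.584 to 1.23) for the upstream flank and 0.583 (0.412 to 0.819) for the downstream flank. The shortened HS list ended at a score of -2.464, while the companion list still ran to -2. Pairs close to -2 were thus dropped from the HS list alone. With the strongest 50% of each list kept, 22 HS and 16 companion pairs of the window were left, a ratio of 1.375 (0.690 to 2.80). The HS and companion scores may not share a scale.

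**Figure D1:**
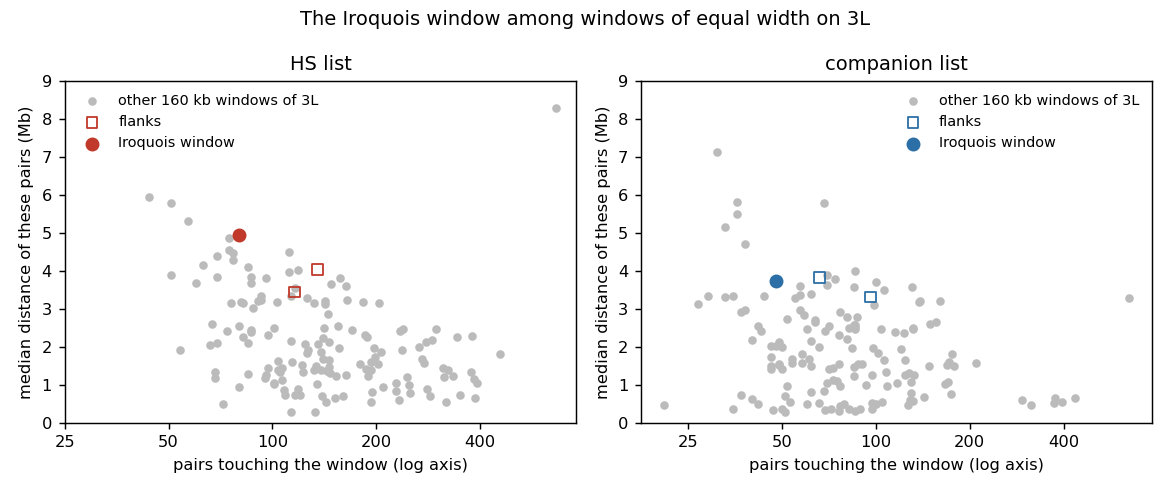
Each point is a window of 16 bins on 3L, with the number of pairs that touch it on a log axis and the median distance of these pairs in Mb. The Iroquois window, at 80 and 48 pairs, lies to the left of its flanks in both lists and among the windows with the longest median distance.

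Few contacts between bins inside the complex were listed. Of 105 possible pairs of bins at least 20 kb apart within the window, none was in the HS list and 3 were in the companion list. Taken as a limit of 3 counts, which is not the exact interval used elsewhere, 0 of 105 allows a share of up to 2.86%. In the other windows 1.80% of the possible inside pairs were in the HS list and 0.940% in the companion list. The 3 companion pairs of the complex are 2.86% of its 105, and 129 of the 151 other windows had fewer in that list. A window with no inside pair was common, since 55.0% of the other windows had none in the HS list and 60.9% none in the companion list. The 0 of the HS list is thus the most common value for a window of this width. With 3 pairs in all, no difference between the lists could be shown.

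All 3 companion pairs inside the complex ended in the thirteenth bin, 3L 12700001-12710000, toward the mirr end. One joined it to the first bin, 3L 12580001-12590000, 120 kb away at the ara end, with a score of -2.07. Another joined it to the third bin, 3L 12600001-12610000, with -2.05. The strongest joined it to the seventh bin, 3L 12640001-12650000, with -2.29. These scores lie just past the limit of -2. In the HS list the thirteenth bin had 6 partners, none of them inside the window. Only 11 of the 151 other windows had more than 3 inside pairs in the companion list, and 11 had the same number.

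Pairs that joined the upstream flank to the last bin of the window, 3L 12730001-12740000, or to the downstream flank were found in both lists. The bin 3L 12510001-12520000 was paired with the last bin, 220 kb away, with scores of -2.71 in the HS list and -2.72 in the companion list. It was also paired with 3L 12740001-12750000, with -2.62 and -3.07. The neighbouring bin 3L 12520001-12530000 was paired with the last bin of the window, with scores of -2.24 and -2.86. These 3 pairs were the only ones between these stretches in the companion list. Another, from 3L 12490001-12500000 to the last bin, was in the HS list alone with -2.09. The bin 3L 12510001-12520000 was rich in partners of any kind, with 48 in the HS list and 18 in the companion list.

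Pairs up to 1 Mb apart that passed over the window, with a bin on either side, numbered 7 in the HS list and 9 in the companion list. The medians over the other windows of 3L were 33 and 20, and 13 and 33 of the 151 had fewer. Within 0.8 Mb on either side of the window the HS list held 62 pairs, of which 6 touched the window, and the companion list 73, of which 7 did. No pair joined the window to the downstream flank in either list. With the upstream flank it had 4 pairs in the HS list and 2 in the companion list.

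**Figure D2:**
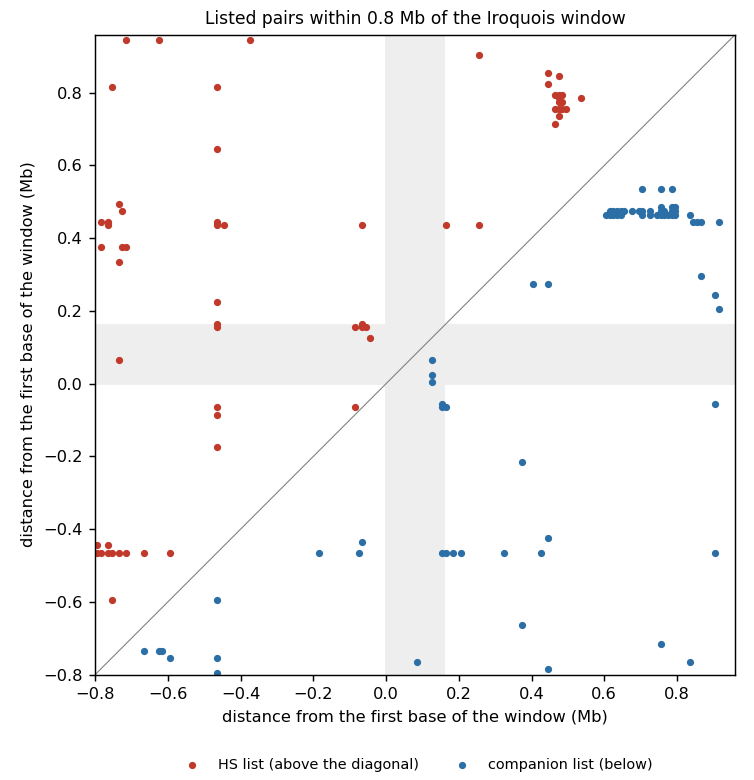
Points are listed pairs with both bins within 0.8 Mb of the window, by the distance of each bin from its first base, with the HS list above the diagonal and the companion list below. The shaded bands mark the Iroquois window, which 6 HS and 7 companion pairs touch, 3 of the latter inside it.

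The contacts of the complex were mostly distant ones. HS pairs that left the window had a median distance of 4.945 Mb (3.67 to 6.22 Mb), against 1.62 Mb for the rest of 3L. For companion pairs these medians were 3.85 Mb (3.33 to 4.57 Mb) and 1.23 Mb. The nearest HS partner lay 170 kb away and the farthest 12.47 Mb, and the companion partners outside the window lay 210 kb to 11.47 Mb away. Over all pairs that touched the window, inside ones included, the medians were 4.945 and 3.725 Mb, and 4 of the 151 other windows had a longer one in the HS list and 10 in the companion list. The medians were 4.04 and 3.82 Mb in the upstream flank and 3.45 and 3.315 Mb in the downstream flank. The complex and its flanks thus all had longer medians than the rest of the arm.

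Near pairs were few, in the complex and in its flanks alike. Pairs up to 1 Mb apart made up 6 of 80 HS pairs, 7.5% (2.80 to 15.6%), and 7 of 48 companion pairs, 14.6% (6.07 to 27.8%). On 3L as a whole 35.1% of HS and 44.9% of companion pairs were that near. The upstream flank had 6.67% (3.09 to 12.3%) and 12.1% (5.38 to 22.5%), and the downstream flank 7.76% (3.61 to 14.2%) and 11.5% (5.86 to 19.6%). The flanks thus had as small a share of near pairs as the complex, within the counting error.

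At the longest distances the window and its downstream flank differed in the HS list. Pairs over 5 Mb apart made up 40 of 80 HS pairs of the window, 50% (38.6 to 61.4%), and 26.7% (18.9 to 35.7%) in the downstream flank. The upstream flank had 33.3% (25.5 to 42.0%), an interval that overlaps that of the window, and the rest of 3L 18.3% (17.6 to 19.0%). In the companion list the share was 13 of 48 in the window, 27.1% (15.3 to 41.9%), and 20.5% (19.6 to 21.4%) in the rest of the arm. The intervals of the lists overlap for the window. The window lies near the middle of the arm, so no partner can lie much farther away than the 12.47 Mb seen.

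**Figure D3:**
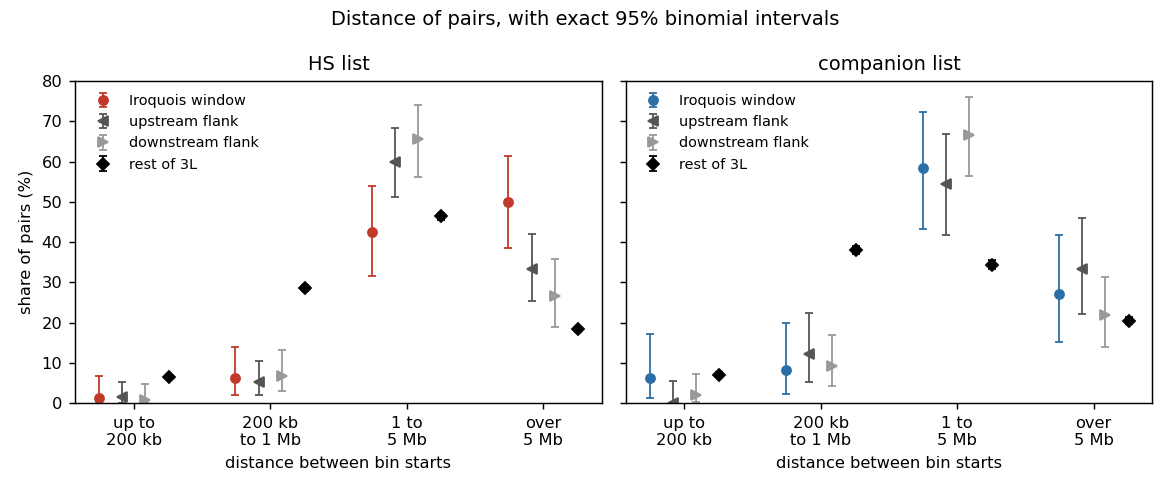
Shares of pairs in 4 distance bands, in percent, for the Iroquois window, its flanks and the rest of 3L in each list, with bars for exact 95% binomial intervals. Between 200 kb and 1 Mb the window, at 6.25% and 8.33%, and both flanks lie below the rest of the arm, at 28.6% and 38.1%, with intervals that do not reach it.

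The median bin of the window had 4 partners (1 to 6) in the HS list and 2 (1 to 4) in the companion list, where all bins of 3L had medians of 6 and 3. The intervals of the window hold the values of the arm. Of the 16 bins, 13 had a partner in the HS list and 14 in the companion list, while the second bin, 3L 12590001-12600000, had none in either. More HS than companion partners were found for 8 bins and fewer for 7. Over bins of 3L used in either list, 67.6% had more in the HS list, and over all arms 70.8%. The window had 8 of its 15 used bins in that class, the downstream flank likewise 8 of 15, and the upstream flank 11 of 16.

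The seventh bin, 3L 12640001-12650000, had the largest gain of the complex. It had 25 partners in the HS list and 4 in the companion list, while its neighbours had 5 and 2 in the HS list. On 3L, 170 of 2454 bins had more HS partners and 72 had a larger gain. Its HS partners were spread over the arm, 13 at lower and 12 at higher coordinates, and 24 of the 25 lay over 1 Mb away. The median of their own partner numbers was 9, against 18 for bins met through all HS pairs of 3L. Of the 25, 10 had 5 or fewer, a count for which no share over the arm is given.

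None of the 25 pairs of the seventh bin was in the companion list. Shared pairs were also few on 3L, at 8.68% of HS pairs over 1 Mb apart. The seventh bin had 4 companion partners, so at most 4 of its pairs could match. The 0 is therefore not read as a trait of this bin. Of its partner bins, 2 were paired with the sixth bin of the window in the companion list. They were 3L 8230001-8240000, at 4.41 Mb from the seventh bin, with scores of -2.22 (seventh bin, HS list) and -2.64 (sixth bin, companion list), and 3L 9030001-9040000, at 3.61 Mb, with -2.14 and -2.12. Among the strongest 33978 HS pairs, 8 of the 25 were left.

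The last bin, 3L 12730001-12740000, was the other rich one and behaved differently from the rest of the window. It had 14 HS and 15 companion partners, close to the 18 and 16 of the next bin outside. The bins just inside it, the fourteenth and fifteenth, had no partner in the HS list and 1 and 2 in the companion list. By partner number the last bin was thus like the bin next to it outside, while the downstream flank had medians of 6 and 4 partners per bin. The window without it had 66 HS and 33 companion pairs, a ratio of 2.0 (1.30 to 3.14).

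The remaining 14 bins had 0 to 7 partners in the HS list and 0 to 6 in the companion list. The ninth bin, 3L 12660001-12670000, had 7 and 6, and the thirteenth, 3L 12700001-12710000, had 6 and 5. The twelfth, 3L 12690001-12700000, had 5 and 1. The fourth, sixth and eleventh bins each had 5 and 2. Falls from the companion to the HS list were of 1 or 2 partners each, as in the third bin, 3L 12600001-12610000, with 1 HS and 3 companion partners.

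**Figure D4:**
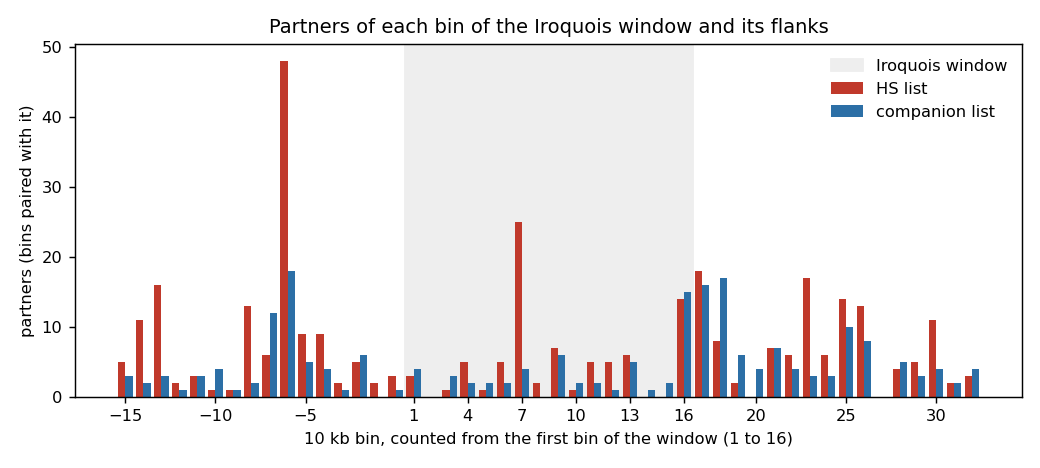
Number of partners of each 10 kb bin of the Iroquois window (shaded, bins 1 to 16) and of 16 bins on either side, in both lists. The seventh bin stands out in the HS list with 25 partners, and the last bin of the window, with 14 and 15 partners, is close to the next bin outside, with 18 and 16.

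Few pairs of the complex were common to both lists, and all of these came from the last bin. Shared pairs numbered 6, which is 7.5% (2.80 to 15.6%) of the HS pairs and 12.5% (4.73 to 25.3%) of the companion pairs of the window. On 3L the shares were 17.4% and 28.2%, and over all arms 32.2% of companion pairs were shared. The upstream flank shared 13 pairs, 9.63% (5.23 to 15.9%) and 19.7% (10.9 to 31.3%), and the downstream flank 11, 9.48% (4.83 to 16.3%) and 11.5% (5.86 to 19.6%). Among pairs over 1 Mb apart the window shared 3 of 74 HS and 3 of 41 companion pairs, 4.05% (0.844 to 11.4%) and 7.32% (1.54 to 19.9%), where 3L shared 8.68% and 16.6%. For these distant pairs both intervals held the value of the arm.

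Of the 6 shared pairs, 3 were near and 3 distant. Besides its pairs with the upstream flank, the last bin was joined in both lists to 3L 12110001-12120000, 620 kb away, with scores of -3.73 in the HS list and -3.21 in the companion list. Toward higher coordinates it was joined to 3L 13990001-14000000, with -2.81 and -2.93, and to 3L 14010001-14020000, with -2.69 and -3.36. The companion list added the bin between these, 3L 14000001-14010000, with -2.29. The last of the 6 joined 3L 16090001-16100000, 3.36 Mb away, with -2.14 and -2.10. The other 15 bins of the window shared 0 of 66 HS and 0 of 33 companion pairs, for which the exact intervals reach up to 5.44% and 10.6%, and a limit of 3 counts 4.55% and 9.09%.

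Allowing for neighbouring bins brought the lists closer. Within 2 bins on either side, 15 of the 80 HS pairs (18.8%, 10.9 to 29.0%) had a match, against 42.3% on 3L. Of the companion pairs 16 of 48 (33.3%, 20.4 to 48.4%) did, against 59.2%. Both intervals lay below the value of the arm. Over 1 Mb apart, 14.9% (7.66 to 25.0%) of HS pairs had such a match, against 27.6% on 3L. Of companion pairs over 1 Mb apart 31.7% (18.1 to 48.1%) did, an interval that holds the 40.1% of 3L. The downstream flank had 36.5% (26.9 to 46.9%) of its companion pairs of any distance matched.

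The 10 strongest pairs over 1 Mb apart were different ones in the HS and companion lists. Shared pairs were 2 of the 10 in the companion list, those of the last bin with 3L 13990001-14000000 and 3L 14010001-14020000, and none of the 10 in the HS list. Of all 3L pairs over 1 Mb apart, 16.6% of companion and 8.68% of HS pairs were shared. With 10 pairs per list, these counts cannot be told from the shares of the arm. In the HS list the strongest joined the last bin to 3L 9820001-9830000, 2.91 Mb away, with a score of -8.82, rank 90 of the 12354 pairs of the arm. Next came the seventh bin with 3L 170001-180000 near the telomere end, at 12.47 Mb, with -6.99. That partner had 2 partners in all in the HS list and none in the companion list.

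The partner bins of the others of these HS pairs had 5 to 181 partners in the HS list. The eighth bin, 3L 12650001-12660000, and the thirteenth were both joined to 3L 16370001-16380000, with scores of -5.22 and -3.56, and that bin had 181 partners in the HS list and 8 in the companion list. The first bin was joined to 3L 10570001-10580000 with -4.50, a partner with 77 and 41 partners. The fourth bin was joined to 3L 20660001-20670000 with -4.96, and the sixth to 3L 20790001-20800000 with -3.17, both about 8 Mb toward the centromere. The other 3 belonged to the seventh bin, with scores of -3.36, -3.34 and -3.16 for partners at 3.63, 1.52 and 6.90 Mb. In the HS list these bins had 5, 68 and 46 partners of their own.

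In the companion list the strongest pair of the complex joined the fifth bin, 3L 12620001-12630000, to 3L 15410001-15420000, 2.79 Mb away, with a score of -12.75, rank 130 of 7608. That partner had 5 partners in the companion list and none in the HS list. The third bin came next, with 3L 19700001-19710000 at 7.10 Mb and -5.25. All other distant companion pairs scored -3.36 or weaker. Among them the first bin was joined to 3L 17150001-17160000 with -3.05, the fourth to 3L 22150001-22160000 with -3.02, and the seventh to 3L 13990001-14000000 with -2.93. The last bin was joined to 3L 8660001-8670000 with -2.90, the tenth to 3L 6470001-6480000 with -2.85, and the twelfth to 3L 24160001-24170000 with -2.78.

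**Figure D5:**
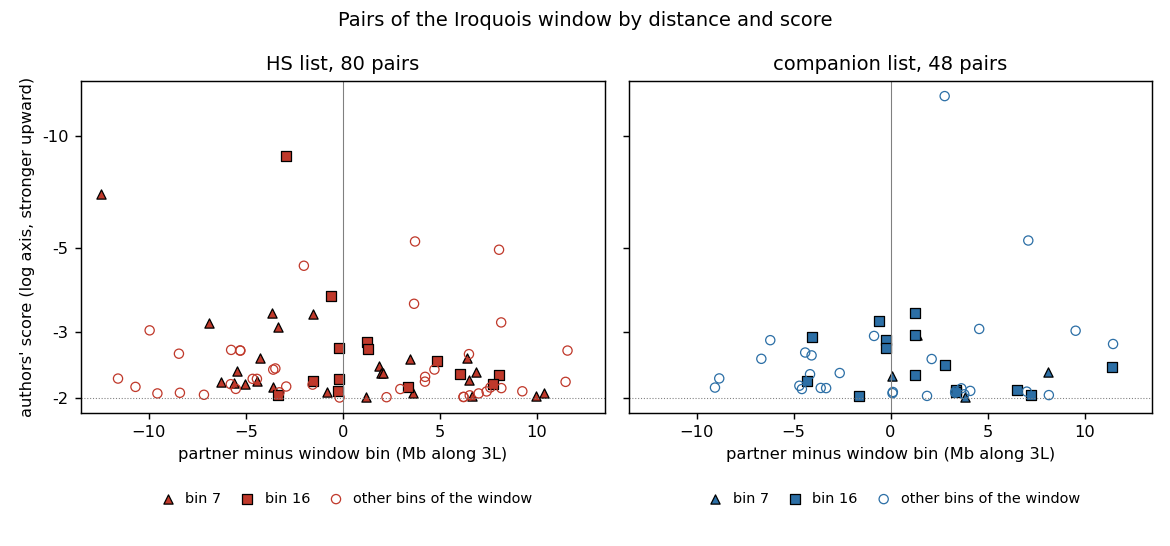
Pairs of the Iroquois window by the signed distance from the window bin to its partner, in Mb, and by the authors' score on a log axis, with the limit of -2 dotted. A pair inside the window is drawn once, from its lower bin. Most of the 80 HS and 48 companion pairs lie close to the limit and on both sides of the complex.

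No bin or window of 160 kb outside the complex took more than 4 of the pairs that left it in either list. Gathering over wider stretches was not tested, and companion partner windows from 3L 8100001 to 3L 8740000 lie near each other. The 80 HS pairs that left the window ended in 75 different bins, and the 45 companion pairs in 43. No bin outside was paired with 3 or more bins of the window. In the HS list 5 bins were paired with 2 of them, and in the companion list 2 bins were, all chosen for mention after their values were seen. They had many partners anywhere on the arm. In the HS list they were 3L 7400001-7410000, 3L 9390001-9400000, 3L 11120001-11130000, 3L 16370001-16380000 and 3L 24160001-24170000, with 60 to 367 partners there. The companion list had 3L 13990001-14000000, with 37 partners, and 3L 24160001-24170000, with 295. The latter bin, close to the centromere end, was thus met through 2 bins of the window in each list, different ones each time (the first and eleventh, and the twelfth and last).

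Of the 151 other windows of 160 kb on 3L, 92 had no pair with the complex in the HS list and 43 had 1. In the companion list 119 had none and 22 had 1. The window with most HS pairs was the upstream flank, with 4. It was followed by 3L 8900001-9060000, 3L 18980001-19140000 and 3L 20740001-20900000, with 3 each, and 3L 7140001-7300000, with 2. In the companion list 3L 13860001-14020000 had 4, 3L 15940001-16100000 had 3, and 3L 8100001-8260000, 3L 8420001-8580000 and 3L 8580001-8740000 had 2 each. Ties at 2 were ordered by position, so other windows with 2 pairs go unnamed. The upstream flank, first in the HS list, had 2 companion pairs.

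Partners of the complex were not mainly the richest bins of the arm. The median partner had 12 partners of its own (11 to 17) in the HS list and 9 (6 to 12) in the companion list. Bins met through all pairs of 3L had medians of 18 and 12. Bins in the top 1% of all arms by partner number took 4 of the 80 HS pairs, 5.0% (1.38 to 12.3%), and 3 of the 45 companion pairs that left the window, 6.67% (1.40 to 18.3%). The same share over all pairs of 3L is not given, so these shares cannot be placed above or below the arm. Toward lower coordinates the window had 41 HS and 19 companion pairs, and toward higher ones 39 and 26. The ratios, 2.16 (1.22 to 3.94) and 1.5 (0.890 to 2.57), had overlapping intervals.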

How the data were processed

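Of the 9 samples of the series, the Hi-C libraries of heat-shocked cells (n = 2, deposited as 1 list) and a companion list tied to no sample by the labels were used. The score in both deposited lists was computed by the authors. Its base, test and background model are not stated in these sources, nor are the genome build and any merging of libraries. The aligner Bowtie, version 0.12.7, appears in the submitters' processing notes. Pairs of the window, of flanks of equal width and of tiles of equal width on 3L were counted with Python 3.11.15, pandas 2.3.3 and scipy 1.17.1. Distance is between bin starts, a bin's partners are all bins paired with it, and a shared pair has both bins the same in both lists. The counting functions were tested on simulated lists. Named were all bins with partners, inside pairs, the 10 strongest pairs over 1 Mb apart per list, shared pairs, and the 5 tiles with most pairs per list. The members, the window and these rules were chosen with earlier results of these data known. Alternatives were equal list length, the strongest 50%, other window limits, pairs over 50 kb or 1 Mb, and lists without rich partners or the centromere end. Pathway genes were not placed in bins, since the gene table is of another build.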

Additional observations from a re-analysis of the deposited data

How the results depend on the processing

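Over 16 results, 139 of 154 values under an alternative lay inside the reported interval or, for counts, within 1.5 times of the reported count. Some of these could not move, so the tally does not measure robustness. Flank ratios stay the same when a bin of the window is left out, and companion counts when only the HS list is shortened. The 0 HS pairs inside the window cannot change when pairs are only taken away. In lists of equal length the HS pairs of the window fell to 26 and the ratio turned to 0.542. There the upstream flank turned to 0.849, the downstream flank moved to 0.583, and 2 bins had more HS partners instead of 8. In the strongest 50% of each list 22 HS and 16 companion pairs were left, a ratio of 1.375, and 0 companion pairs inside. A window 2 bins narrower at each end had 28 companion pairs and shared 0%, and 2 bins wider it had 82. The share of companion pairs also in the HS list was 0% without the last bin and 0% with the window moved 1 bin to lower coordinates, both by the loss of that bin, and 27.1% and 33.3% within 1 and 2 bins. Leaving out the last bin, leaving out the seventh bin and moving the window were alternatives chosen after seeing the data. Other causes were not tested. Inside pairs over 1 Mb apart cannot exist and were not computed. No paired analysis was possible because both libraries are in 1 list, which also prevents leaving 1 out. With depth unknown, an unlisted pair may still be in contact.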

Other observations

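Among the 48 bins of the window and its flanks the richest in either list was 3L 12510001-12520000 in the upstream flank, whose partners numbered 48 in the HS list and 18 in the companion list. Of its 48 HS partners 43 lay over 1 Mb away, and its median distance was 3.735 Mb. In the downstream flank the second bin, 3L 12750001-12760000, went from 17 companion to 8 HS partners, and the seventh, 3L 12800001-12810000, from 3 to 17. These bins were chosen after their values were seen. The window next to the upstream flank on its far side is 3L 12260001-12420000. In the HS list 2 of its 85 pairs, 2.35%, were up to 1 Mb apart. This was the smallest such share among the windows that tile 3L in step with the Iroquois window. With the tiles shifted by 8 bins the smallest share was 1.25%. The ratio of HS to companion pairs of 3L 12260001-12420000 was 2.93. The window beyond the downstream flank, 3L 12900001-13060000, had 23.5% of 204 HS pairs and 47.0% of 117 companion pairs up to 1 Mb apart.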
